A study of Homo sapiens with 24 samples.

Results

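The comparison set the 6 libraries of parental DTP cells against the 6 libraries of chemoresistant cells, which are 12 of the series' 24 libraries and were chosen by their labels alone. All come from KYSE450, an established human cell line of oesophageal squamous cell carcinoma, a cancer of the squamous lining of the gullet, and all are labelled wild type. The first group is the parental line in the state the labels call DTP, which in the cancer field usually stands for drug-tolerant persister, and the second is the chemoresistant line, whose library names add the letters DDP to the name of the cell line. The other 12 libraries are 6 of the plain parental line and 6 of the chemoresistant line in its own DTP state, and they appear below for scale. Every library carries the same culture entry, RPMI-1640 medium with fetal bovine serum, and the treatment entry reads no treatment. The drug, dose and time behind the DTP state and behind the resistant line are not in the labels, nor is it said whether the resistant line is 1 clone or a mixed population. The labels number the libraries of a group 1 to 6 and are silent on whether each is a culture of its own; the p-values below therefore describe only the spread between these libraries, which may be technical.

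Persister cells are the few cells of a tumour cell population that outlive a drug dose that kills the rest, commonly while dividing slowly, and they usually return to drug sensitivity once the drug is gone. A resistant line, by contrast, is a population selected over long exposure that keeps its resistance over many divisions. Several stress programmes are known from both: the integrated stress response, in which the transcription factor ATF4 switches on amino acid synthesis, transport and warning hormones; the NRF2 programme, in which release of NRF2 from its inhibitor KEAP1 raises glutathione synthesis and detoxifying enzymes; and interferon signalling, which raises antiviral proteins and antigen presentation. The series' title names the stress hormone GDF15 and its receptor, NRF2, glutathione synthesis through GCLC, and a copper-driven form of cell death called cuproptosis. The question here was how far the expression state of the parental persisters matches that of the stable resistant line.

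Expression is given as FPKM, fragments per kilobase of gene length scaled to the mapped reads of the library, which allows levels of different genes to be set side by side. Differences are on the log2(FPKM + 1) scale, parental DTP minus chemoresistant, with the standard error (SE) from limma, a linear-model test across all genes, and with p-values adjusted over all 13473 genes that had a mean of at least 1 FPKM in either group. Adding 1 FPKM shrinks the differences of weakly expressed genes. A gene is called matched when the 95% interval of its difference lies wholly within 0.5 either side of 0. A gene can be matched and also differ significantly by a small amount. The 24 libraries held between 14947379 and 37989457 reads.

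Squamous markers were expressed in both groups: all 12 squamous epithelial markers looked up were above 1 FPKM in at least 1 library of each group. Their summed level was 2924 to 3530 FPKM in parental DTP and 4847 to 5617 FPKM in chemoresistant libraries. Markers of leukocytes, endothelium and red cells summed to at most 2.42, 0.251 and 1.26 FPKM in parental DTP and to at most 2.09, 1.22 and 1.27 FPKM in chemoresistant libraries. The 7 markers of glandular epithelium summed to 296 to 361 FPKM in parental DTP and 386 to 450.0 FPKM in chemoresistant libraries, and in each group 4 of the 7 were under 1 FPKM in all 6 libraries. That sum came mainly from KRT8 and KRT18, keratins of simple epithelium, which were at 177 to 214 FPKM and 113 to 144 FPKM in parental DTP and at 232 to 274 FPKM and 153 to 176 FPKM in chemoresistant libraries; both were lower, by 0.39 (SE 0.056) and 0.45 (SE 0.0692) on the log2 scale. The 7 fibroblast markers summed to 1.46 to 5.84 FPKM in parental DTP and 4.43 to 19.3 FPKM in chemoresistant libraries.

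Some libraries stood apart within their group. For a set of 15 genes with at least 20 FPKM in chemoresistant cells and at least 50 times the parental mean, the median level in parental DTP libraries 1 to 4 was between 0.494% and 0.746% of the chemoresistant mean. In parental DTP libraries 5 and 6 it was 3.23% and 2.99%, against 0.579% to 1.04% in the 6 parental libraries. Both cut-offs and the set were chosen after these libraries had been seen to differ. In chemoresistant libraries 1 to 3 the collagen gene COL1A2 lay between 0.00906 and 0.0311 FPKM, and in libraries 4 to 6 it lay between 1.9 and 2.7 FPKM. The chemoresistant DTP libraries split the other way, at 1.5 to 2.24 FPKM in libraries 1 to 3 and 0.0127 to 0.019 FPKM in libraries 4 to 6. COL1A2 was at 0.0492 and 0.0495 FPKM in parental DTP libraries 5 and 6 and between 0.522 and 0.941 FPKM in the other 4. The part that parental DTP 5 and 6 and chemoresistant 4 to 6 play in the results was not tested beyond leaving them out. Counts without parental DTP 5 and 6, or without chemoresistant 4 to 6, are given below for each gene list.

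**Figure D1:**
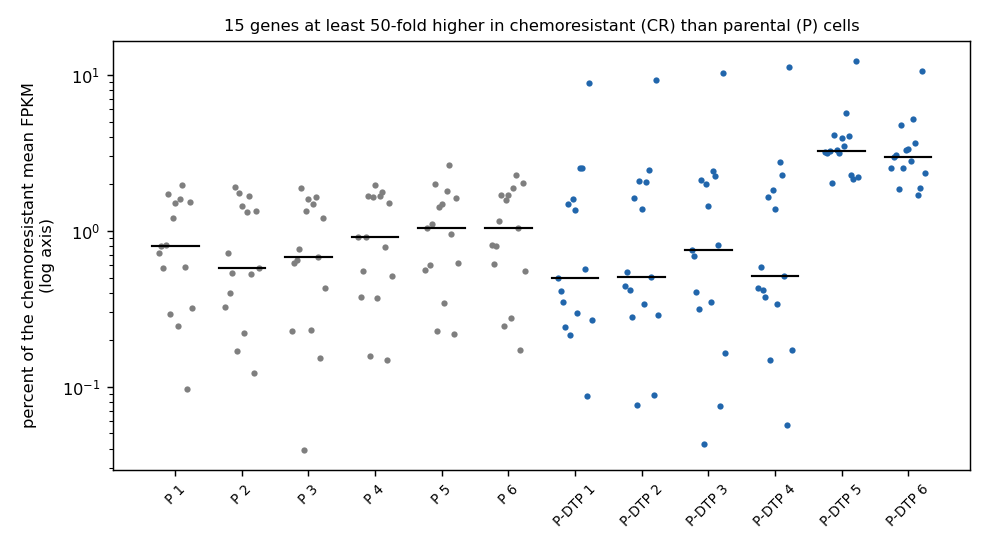
Level of the 15 genes in each parental (P) and parental DTP (P-DTP) library as a percent of the mean of the 6 chemoresistant (CR) libraries, on a log axis; each point is 1 gene and the bar is the median. The medians of P-DTP 5 and 6, at 3.23% and 2.99%, lie above those of the other 10 libraries.

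Most genes differed, and most of those differences were small. Of 13473 genes, 4537 (33.7%) were higher and 4482 (33.3%) lower in parental DTP at an adjusted p of 0.05, together 66.9%, but only 324 (2.40%) were higher and 617 (4.58%) lower by at least 2-fold. The interval lay within 0.5 for 7946 genes (59.0%), and the single libraries of the 2 groups did not overlap for 5994 genes (44.5%). Without parental DTP 5 and 6, 380 genes were at least 2-fold higher, 667 at least 2-fold lower and 7483 matched. Without chemoresistant 4 to 6, these counts were 359, 615 and 6935. The 2-fold and matched counts depend on how weakly expressed genes are treated. With 0.1 FPKM added in place of 1, 628 genes were at least 2-fold higher, 1087 at least 2-fold lower and 6203 (46%) matched. By limma-voom on reads recovered from the FPKM, these counts were 681, 1158 and 6080 (45.1%). Across genes the difference fell with the GC content of the transcript (Spearman's rho -0.245 over 12934 genes, which are not independent replicates), and the part of GC content in the results was not tested.

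The parental persisters lay closer to the resistant line than the parental line did, but outside its own spread. The distance of a library was taken as the root mean square log2 difference from the mean of the chemoresistant libraries over 13729 genes with at least 1 FPKM in any group. Chemoresistant libraries lay 0.17 ± 0.0335 (SD, n = 6) from the mean of their other 5, and chemoresistant DTP libraries 0.373 ± 0.0447 from the chemoresistant mean. Parental libraries lay at 0.773 ± 0.0082 (0.763 to 0.786, n = 6) and parental DTP libraries at 0.62 ± 0.0298 (0.564 to 0.642, n = 6). The 2 ranges did not overlap, and the means were 0.154 apart. The nearest parental DTP library was library 6, at 0.564, followed by library 5, at 0.608. Without those 2 libraries, the difference was 0.137. By gene list, the persisters were closer than parental cells in most lists but not in all. In the squamous differentiation list the root mean square difference from the chemoresistant mean was 1.83 for parental DTP and 1.69 for parental cells. It was 1.29 and 1.15 in the EGFR list, 1.23 and 1.17 for keratins, 2.67 and 2.65 for kallikreins, and 0.806 and 0.775 for lipid synthesis.

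**Figure D2:**
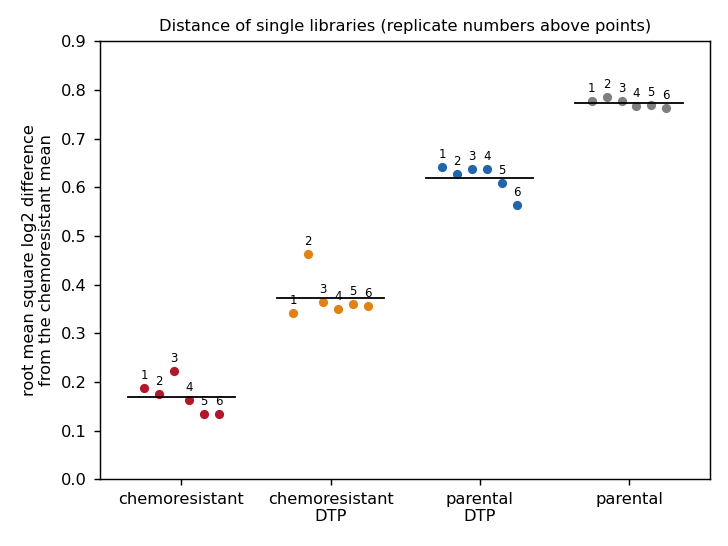
Distance of each library from the chemoresistant mean (root mean square log2 difference over 13729 genes; chemoresistant libraries against the mean of the other 5). Points are libraries with their replicate numbers and bars are group means; parental DTP libraries lie at 0.564 to 0.642, below all parental libraries at 0.763 to 0.786 and above all chemoresistant DTP libraries at 0.342 to 0.463.

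**Figure D3:**
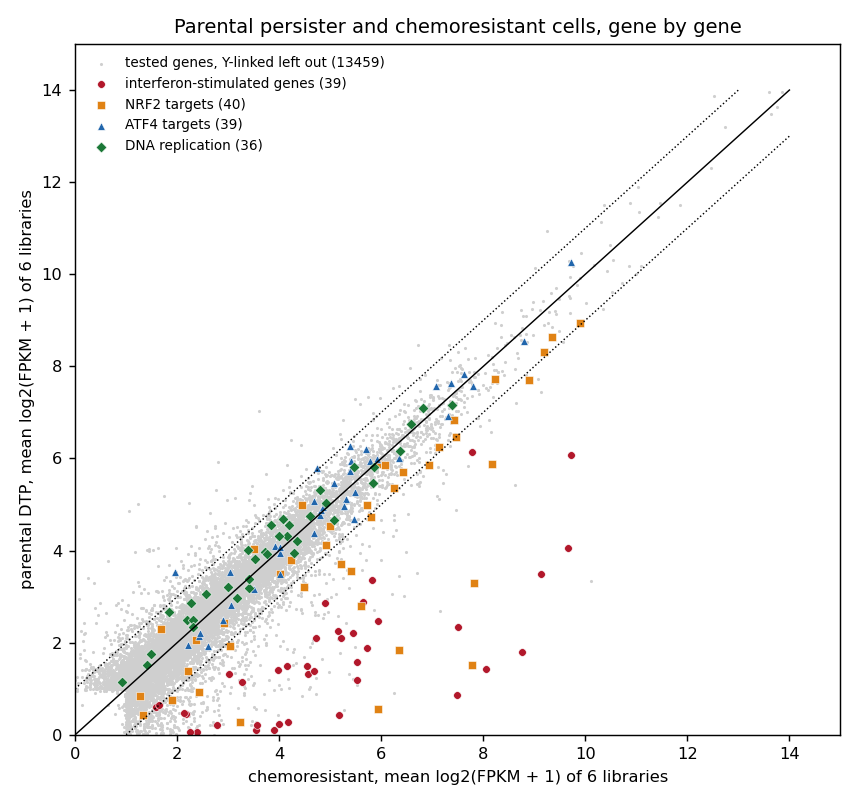
Mean log2(FPKM + 1) of each tested gene that is not Y-linked in chemoresistant (x) and parental DTP (y) cells; the solid line marks equal levels and the dotted lines a difference of 1. Members of the ATF4 and DNA replication lists lie along the line, and the interferon-stimulated genes lie below it.

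Of the genes looked up for the series' title, GCLM was higher in the persisters, and the others had negative differences, some of them small. In bulk libraries such as these, fewer cells with a transcript and less of it per cell cannot be told apart. GDF15, a hormone released by stressed cells that acts through the receptor GFRAL, lay between 15.9 and 23.9 FPKM (median 20.4) in parental DTP and between 21.7 and 26.8 FPKM (median 24.9) in chemoresistant libraries, with the ranges overlapping. Parental libraries held 0.431 to 0.742 FPKM, so both groups stood far above the parental line. The difference between them was -0.297 ± 0.0865 (SE), limma adjusted p = 0.0043, and counted as matched. NFE2L2, the gene of NRF2, lay between 27.7 and 37.2 FPKM (median 35.5) in parental DTP and between 31.1 and 42.2 FPKM (median 38.1) in chemoresistant libraries, a difference of -0.11 ± 0.0778 (SE), limma adjusted p = 0.21, also matched. KEAP1 lay between 25.02 and 35.6 FPKM (median 26.1) in parental DTP, below every chemoresistant library, which lay between 46.9 and 63.5 FPKM (median 51.8). That was a difference of -0.93 ± 0.0896 (SE), limma adjusted p = 2.6e-09. Parental libraries held 13.8 to 18.03 FPKM of NFE2L2, below both groups. They held 34.2 to 44.97 FPKM of KEAP1, a range that overlapped parental DTP and lay below all chemoresistant libraries.

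The 2 subunits of glutamate-cysteine ligase, which makes the rate-limiting step of glutathione synthesis, differed in opposite directions. GCLC, the catalytic subunit, lay between 9.03 and 12.2 FPKM (median 11.04) in parental DTP and between 36.8 and 45.4 FPKM (median 41.5) in chemoresistant libraries, and 5.7 to 6.54 FPKM in the parental line. The persisters were lower by 1.85 on the log2 scale (SE 0.0632, limma adjusted p = 3.9e-18), with no overlap. GCLM, the modifier subunit, lay between 13.4 and 19.03 FPKM (median 14.8) in parental DTP and between 8.25 and 12.6 FPKM (median 10.3) in chemoresistant libraries, a difference of 0.52 ± 0.1 (SE), limma adjusted p = 7.9e-05. FDX1, the ferredoxin known as a regulator of cuproptosis, was lower in parental DTP (2.85 to 4.04 FPKM) than in chemoresistant libraries (4.2 to 5.21 FPKM), a difference of -0.39 ± 0.0663 (SE). SLC31A1, the main copper importer, overlapped between the groups at 14.5 to 18.7 FPKM and 16.6 to 19.2 FPKM, a difference of -0.19 ± 0.0617 (SE), and was matched.

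Integrated stress response genes were matched about as often as all genes, with a median difference near 0. Of 39 tested members of the ATF4 list, 25 were matched (64.1%, against 59.0% of all genes), 13 were higher and 17 lower (against 33.7% and 33.3%). The median difference was -0.02, against 0.02 over all genes. The same members stood a median of 1.51 above the parental line in parental DTP and 1.52 above it in chemoresistant cells, values that share the parental libraries. The root mean square difference of the members from the chemoresistant mean was 0.48 for parental DTP and 1.98 for parental cells. ADM2, a peptide hormone of the calcitonin family, lay between 13.5 and 15.4 FPKM (median 14.5) in parental DTP and between 14.18 and 16.9 FPKM (median 15.1) in chemoresistant libraries, against 0.312 to 0.469 FPKM in the parental line. DDIT3, the stress transcription factor also called CHOP, lay between 21.9 and 34.7 FPKM (median 25.4) and between 24.1 and 29.5 FPKM (median 27.5) in the same order, against 2.95 to 4.56 FPKM in parental libraries. SLC6A9, a glycine transporter, lay between 12.7 and 15.5 FPKM (median 14.2) and between 13.7 and 16.96 FPKM (median 15.1). For all 3 genes the groups overlapped, with differences of -0.08 ± 0.0467 (SE), -0.02 ± 0.0987 (SE) and -0.09 ± 0.0635 (SE). SESN2, a sestrin that restrains mTORC1 when amino acids are short, was matched but lower in the persisters by 0.36 (SE 0.0459), with no overlap.

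Other members of that list were not matched. PPP1R15A, the phosphatase subunit that ends the response, lay between 47.5 and 63.7 FPKM (median 55.1) in parental DTP and between 22.8 and 28.1 FPKM (median 25.96) in chemoresistant libraries, and TRIB3, a pseudokinase that restrains ATF4, lay between 71.3 and 82.1 FPKM (median 76.1) and between 36.9 and 43.2 FPKM (median 41.6). The differences were 1.06 ± 0.0556 (SE) and 0.88 ± 0.0482 (SE), limma adjusted p = 2.3e-14 and 5.3e-14. CHAC1, an enzyme that breaks down glutathione, went the other way, at 21.4 to 27.8 FPKM in parental DTP and 39.1 to 49.3 FPKM in chemoresistant libraries, a difference of -0.78 ± 0.0804 (SE). ALDH1L2, a mitochondrial folate enzyme, was at 9.01 to 10.96 FPKM in parental DTP, above all 18 libraries of the other groups, which reached at most 3.22 FPKM in the resistant line. Its difference was 1.57 ± 0.0726 (SE). Without parental DTP 5 and 6 the list held 13 higher, 17 lower and 24 matched members, and without chemoresistant 4 to 6 it held 12, 17 and 21.

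The promoter of CHAC1 is shown because it carries the short DNA word bound by ATF4 with its partners. The 250 bases before its RefSeq start, chr15:40953221-40953470 on the plus strand of GRCh38.p14, hold 1 match of the amino acid response element TGATGNAA on either strand, in capitals, 209 bases before the start.
CHAC1: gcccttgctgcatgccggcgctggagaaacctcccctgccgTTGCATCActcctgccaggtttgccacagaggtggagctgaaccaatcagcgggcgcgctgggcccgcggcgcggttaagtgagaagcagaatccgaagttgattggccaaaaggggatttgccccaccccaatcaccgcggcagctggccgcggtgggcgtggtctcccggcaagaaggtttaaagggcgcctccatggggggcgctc
In windows from 250 bases before to 50 after the start, 7 of 33 promoters of the list (21.2%) held that word, against 3.67% of 27305 RefSeq promoters. The word sits in the promoter of a gene that was not matched, as CHAC1 was lower in the persisters.

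Cytosolic aminoacyl-tRNA synthetases, which charge tRNAs and of which many are ATF4 targets, were mostly matched. Of 20 members, 15 were matched (75.0%, against 59.0% of all genes), 13 were higher and 3 lower (against 33.7% and 33.3%). The median was 0.18. The synthetase counts of higher, lower and matched genes were 11, 3 and 16 without parental DTP 5 and 6, and 12, 3 and 12 without chemoresistant 4 to 6. AARS1, the enzyme for alanine, lay between 79.03 and 94.02 FPKM (median 81.3) in parental DTP and between 72.4 and 78.5 FPKM (median 75.2) in chemoresistant libraries. TARS1, for threonine, lay between 106 and 134 FPKM (median 118) and between 146 and 195 FPKM (median 177), a difference of -0.54 ± 0.0667 (SE), and FARSB, for phenylalanine, lay between 13.1 and 15.6 FPKM (median 14.25) and between 8.09 and 10.2 FPKM (median 9.46), a difference of 0.57 ± 0.0549 (SE). Neither TARS1 nor FARSB overlapped between the groups, and they stood apart in opposite directions.

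Heat shock genes were higher and lower in shares near those of all genes. Of 26 tested members 10 were higher, 11 lower and 12 matched (46.2%), against 33.7%, 33.3% and 59.0% of all genes, with a median of -0.08. The heat shock counts of higher, lower and matched genes were 10, 10 and 12 without parental DTP 5 and 6, and 10, 8 and 10 without chemoresistant 4 to 6. HSPA8, the constitutive HSP70 chaperone, lay between 76.7 and 96.9 FPKM (median 82.7) in parental DTP and between 89.05 and 107 FPKM (median 95.4) in chemoresistant libraries, while parental libraries held 727 to 814 FPKM. DNAJA1, an HSP40 co-chaperone, lay between 34.9 and 48.7 FPKM (median 37.8) and between 37.7 and 49.1 FPKM (median 40.2), against 173 to 198 FPKM in the parental line. Both were matched, with differences of -0.199 ± 0.0545 (SE) and -0.09 ± 0.0688 (SE). HSP90AA1, the inducible HSP90, and its helpers STIP1 and CHORDC1 were higher in the persisters than in the resistant line. Parental libraries held more of each than both groups, at 579 to 761, 204 to 225 and 23.4 to 26.4 FPKM in that order. CHORDC1 was at 8.03 to 9.87 FPKM in parental DTP and 2.23 to 3.13 FPKM in chemoresistant libraries, STIP1 at 103 to 124 FPKM and 53.5 to 60.03 FPKM, and HSP90AA1 at 176 to 222 FPKM and 93.98 to 129 FPKM. None of these ranges overlapped, and the differences were 1.499 ± 0.0513 (SE), 1.01 ± 0.045 (SE) and 0.95 ± 0.089 (SE). HSPA1B, an inducible HSP70 with a near-identical copy whose reads may be split between both, was at 12.8 to 15.4 FPKM in parental DTP, below all 18 other libraries.

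The promoter of HSPA8 is shown because heat shock factor binds repeats of the word GAA in alternating orientation. Its 250 bases before the start, chr11:123062137-123062386 on the minus strand of GRCh38.p14, hold 2 matches of the word GAA, any 2 bases, TTC, any 2 bases, GAA on either strand, in capitals, 230 and 55 bases before the start.
HSPA8: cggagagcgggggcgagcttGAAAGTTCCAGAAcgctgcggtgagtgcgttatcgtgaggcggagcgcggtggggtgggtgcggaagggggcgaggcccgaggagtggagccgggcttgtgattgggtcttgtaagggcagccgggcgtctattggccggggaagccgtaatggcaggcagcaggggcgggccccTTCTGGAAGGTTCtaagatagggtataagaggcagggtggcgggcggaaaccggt
Of 24 promoters of the heat shock list, 5 (20.8%) held this word, against 0.487% of all promoters.

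Genes of cell division were at similar levels in both groups, with a small shift upwards in the persisters. In the DNA replication list 28 of 36 members were matched (77.8%), 20 were higher and 7 lower, with a median of 0.17. In the mitosis list 24 of 32 were matched (75.0%), 17 were higher and 2 lower, with a median of 0.23. Among all genes 59.0% were matched, 33.7% higher and 33.3% lower. The DNA replication counts of higher, lower and matched genes were 21, 7 and 27 without parental DTP 5 and 6, and 19, 8 and 22 without chemoresistant 4 to 6. The mitosis counts of higher, lower and matched genes were 20, 1 and 21 without parental DTP 5 and 6, and 17, 2 and 18 without chemoresistant 4 to 6. Relative to the parental line both lists stood lower, by medians of 0.43 and 0.50 in parental DTP and of 0.61 and 0.74 in chemoresistant cells. MCM3, a subunit of the replicative helicase, lay between 53.1 and 57.4 FPKM (median 55.5) in parental DTP and between 52.7 and 62.7 FPKM (median 57.8) in chemoresistant libraries, against 114 to 124 FPKM in the parental line, a difference of -0.05 ± 0.0396 (SE). BUB3, a spindle checkpoint protein, lay between 29.1 and 33.05 FPKM (median 31.6) and between 30.98 and 32.7 FPKM (median 32.01). The exceptions were higher in the persisters: GINS1, a replication fork protein, was at 4.84 to 5.77 FPKM against 2.25 to 2.96 FPKM, CDC6, which loads the helicase, at 20.6 to 25.5 FPKM against 11.9 to 14.7 FPKM, and KIF4A, a mitotic motor, at 13.1 to 16.3 FPKM against 6.04 to 8.8 FPKM. Their differences were 0.83 ± 0.0595 (SE), 0.72 ± 0.0507 (SE) and 0.83 ± 0.0719 (SE), none with overlap. MKI67, the common proliferation marker, was at 26.5 to 41.8 FPKM in parental DTP and 18.03 to 25.96 FPKM in chemoresistant libraries, a difference of 0.69 ± 0.164 (SE).

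Of the matched genes farthest below the parental line, TUBB4B, a beta tubulin, lay between 197 and 245 FPKM (median 232) in parental DTP and between 219 and 269 FPKM (median 233) in chemoresistant libraries, against 641 to 789 FPKM in parental ones. UHRF1, which maintains DNA methylation at replication, lay between 13.1 and 16.7 FPKM (median 13.4) and between 10.9 and 14.5 FPKM (median 12.6), against 34.9 to 42.9 FPKM. SRRT, a factor of RNA processing, lay between 29.4 and 33.98 FPKM (median 30.9) and between 25.4 and 29.3 FPKM (median 27.7), against 73.4 to 85.1 FPKM. All 3 were matched between the persisters and the resistant line, with differences of -0.06 ± 0.0705 (SE), 0.15 ± 0.0713 (SE) and 0.18 ± 0.0437 (SE).

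**Figure D4:**
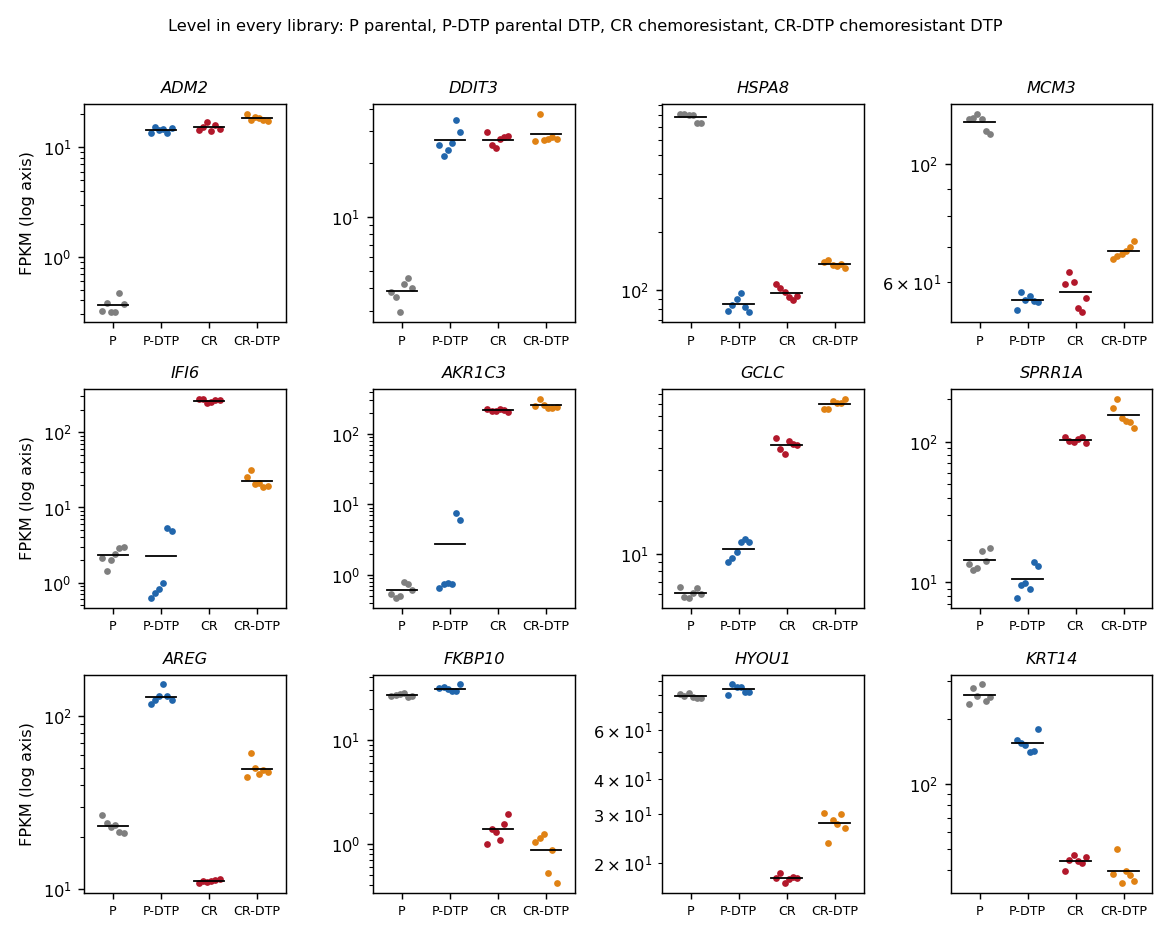
FPKM of 12 genes in every library, on log axes; points are libraries, bars are group means, and P, P-DTP, CR and CR-DTP stand for parental, parental DTP, chemoresistant and chemoresistant DTP. ADM2, DDIT3, HSPA8 and MCM3 overlap between P-DTP and CR, while IFI6, AKR1C3, GCLC and SPRR1A are lower and AREG, FKBP10, HYOU1 and KRT14 higher in P-DTP with no overlap.

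Interferon-stimulated genes had the lowest median of the lists described. All 39 tested interferon-stimulated genes were lower in parental DTP (33.3% of all genes were lower), 37 of them by at least 2-fold, none was matched, and the median difference was -3.22. The persisters stood a median of only 0.09 above the parental line, and the resistant line 3.41 above it, with the same parental libraries in both values. The root mean square difference of the members from the chemoresistant mean was 3.66 for parental DTP and 3.80 for parental cells. BST2, an antiviral tether also called tetherin, lay between 0.709 and 10.1 FPKM (median 1.21) in parental DTP and between 399.7 and 468 FPKM (median 427) in chemoresistant libraries, a difference of -6.97 ± 0.356 (SE), limma adjusted p = 1.3e-14. IFI6 lay between 0.633 and 5.37 FPKM (median 0.909) and between 242 and 276 FPKM (median 269), and IFI27 lay between 0.102 and 3.83 FPKM (median 0.155) and between 153 and 201 FPKM (median 179); both encode small interferon-induced membrane proteins. ISG15, a ubiquitin-like modifier, lay between 7.15 and 20.1 FPKM (median 8.62) and between 504 and 631 FPKM (median 544), and UBE2L6, the enzyme that conjugates it, lay between 2.9 and 5.97 FPKM (median 3.69) and between 166 and 198 FPKM (median 179). IFITM1, which blocks viral entry, lay between 10.9 and 31.8 FPKM (median 11.4) and between 748 and 915 FPKM (median 776). For these 6 genes the highest persister library was library 5 or 6 and still lay far below the lowest chemoresistant library. Without libraries 5 and 6, all 39 were lower with a median of -3.25, and without chemoresistant 4 to 6 all 39 were lower with a median of -3.23.

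The promoters of IFI6 and IFI27 are shown because they carry the interferon-stimulated response element, the word read by the STAT and IRF factors. Each is 250 bases before the RefSeq start in GRCh38.p14, with matches of the word GAAA, any 2 bases, GAAA on either strand in capitals: IFI6 at chr1:27672193-27672442 on the minus strand with 3 matches 156, 115 and 93 bases before the start, and IFI27 at chr14:94110486-94110735 on the plus strand with 2 matches 108 and 95 bases before it.
IFI6: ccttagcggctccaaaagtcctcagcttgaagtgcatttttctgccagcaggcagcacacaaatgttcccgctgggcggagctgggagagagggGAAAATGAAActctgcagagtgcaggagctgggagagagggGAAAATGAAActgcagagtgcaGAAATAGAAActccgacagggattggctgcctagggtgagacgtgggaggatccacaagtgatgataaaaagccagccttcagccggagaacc
IFI27: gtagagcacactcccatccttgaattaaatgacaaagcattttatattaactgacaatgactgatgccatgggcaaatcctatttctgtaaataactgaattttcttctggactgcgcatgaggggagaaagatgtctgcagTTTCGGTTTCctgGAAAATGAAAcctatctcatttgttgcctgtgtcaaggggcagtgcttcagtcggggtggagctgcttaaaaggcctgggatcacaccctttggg
Of 32 promoters of the list, 21 (65.6%) held this word within the longer window, against 3.65% of all promoters.

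Antigen presentation by MHC class I followed the same direction. Of 19 members 16 were lower, 2 higher and 3 matched, against 33.3%, 33.7% and 59.0% of all genes. The median was -1.05, and 1 was higher without chemoresistant 1 or 4 or parental DTP 4. The MHC counts of higher, lower and matched genes were 2, 16 and 2 without parental DTP 5 and 6, and 1, 16 and 3 without chemoresistant 4 to 6. HLA-B, 1 of the class I heavy chains, lay between 5.58 and 10.5 FPKM (median 6.25) in parental DTP and between 80.9 and 96.7 FPKM (median 85.99) in chemoresistant libraries, and HLA-C lay between 23.7 and 36.1 FPKM (median 26.9) and between 159 and 198 FPKM (median 169.5); reads of these similar genes can be split between them. PSMB9, a subunit of the immunoproteasome, was at 0.811 to 1.38 FPKM against 13.7 to 16.97 FPKM. The differences were -3.44 ± 0.127 (SE), -2.58 ± 0.0808 (SE) and -2.901 ± 0.0928 (SE). TAP2, a subunit of the peptide transporter, was matched at 4.16 to 5.62 FPKM and 4.91 to 6.34 FPKM, and CALR, a chaperone of the loading complex, was matched at 122 to 142 FPKM and 113 to 133 FPKM.

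Chemokine and NF-kB genes were divided. Of 30 tested members 12 were higher, 16 lower and 6 matched, against 33.7%, 33.3% and 59.0% of all genes. The median was -0.31. The NF-kB counts of higher, lower and matched genes were 11, 17 and 6 without parental DTP 5 and 6, and 11, 15 and 4 without chemoresistant 4 to 6. The chemokines CCL5 and CXCL10, both also induced by interferon, were lower: CCL5 was at 2.29 to 3.68 FPKM in parental DTP and 39.8 to 50.9 FPKM in chemoresistant libraries, and CXCL10 at 0.426 to 0.704 FPKM and 8.86 to 11.3 FPKM. CCL2, a chemokine that attracts monocytes, was at 5.49 to 6.64 FPKM in parental DTP, above all 18 other libraries, and at 0.275 to 1.8 FPKM in the resistant line. Its difference was 2.03 ± 0.124 (SE), limma adjusted p = 4.1e-13. NFKB1, a subunit of the factor itself, was matched at 9.14 to 10.5 FPKM and 9.65 to 10.4 FPKM. IL1RN, the natural antagonist of the interleukin-1 receptor, was at 0.106 to 0.283 FPKM against 8.3 to 9.04 FPKM, a difference of -3.000 ± 0.0474 (SE).

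Most NRF2 target genes were lower in the persisters, while NFE2L2 itself was matched. Of 40 tested members 36 were lower, 3 higher and 3 matched, against 33.3%, 33.7% and 59.0% of all genes. The median was -0.89. The persisters stood a median of 0.38 above the parental line and the resistant line 1.07, with the parental libraries shared. The aldo-keto reductases, which reduce reactive aldehydes and ketones, were farthest apart. AKR1C3 lay between 0.641 and 7.56 FPKM (median 0.75) in parental DTP and between 206 and 228 FPKM (median 216) in chemoresistant libraries, and AKR1B10 lay between 0.0259 and 1.97 FPKM (median 0.109) and between 58.8 and 62.8 FPKM (median 59.3). The differences were -6.26 ± 0.307 (SE) and -5.39 ± 0.192 (SE). AKR1C1 and AKR1C2, near copies of each other whose reads can be split, were at 1.65 to 4.56 FPKM against 75.6 to 88.4 FPKM and at 6.79 to 14.7 FPKM against 202 to 245 FPKM. TXNRD1, thioredoxin reductase, was matched at 51.7 to 68.3 FPKM and 54.9 to 62.97 FPKM, as was ABCC1, a glutathione-conjugate exporter, at 52.7 to 64.7 FPKM and 63.2 to 69.3 FPKM. Without parental DTP 5 and 6 the counts were 36 lower, 3 higher and 3 matched with a median of -0.99, and without chemoresistant 4 to 6 they were 35, 3 and 3 with a median of -0.92. The antioxidant response element bound by NRF2, searched on either strand as TGAC, any 3 bases, GCA, was in 4 of 29 promoters of the list (13.8%), against 3.26% of all promoters.

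The enzymes of glutathione synthesis and use, a list that shares members with the NRF2 targets, were partly matched and partly lower. Of 32 members 12 were matched (37.5%), 19 lower and 7 higher, against 59.0%, 33.3% and 33.7% of all genes. The median was -0.33. The glutathione counts of higher, lower and matched genes were 7, 18 and 10 without parental DTP 5 and 6, and 6, 19 and 9 without chemoresistant 4 to 6. GPX2, a glutathione peroxidase of epithelia, lay between 54.8 and 61.1 FPKM (median 56.6) in parental DTP and between 266 and 313 FPKM (median 278) in chemoresistant libraries, a difference of -2.29 ± 0.0509 (SE), limma adjusted p = 8.5e-22. GSTM4 and GSTA1, glutathione transferases, were at 2.2 to 2.75 FPKM against 8.51 to 9.44 FPKM and at 0.45 to 0.742 FPKM against 4.08 to 5.39 FPKM. GSS, glutathione synthetase, the second enzyme of synthesis, was matched at 15.5 to 18.9 FPKM and 15.9 to 17.9 FPKM, a difference of -0.04 ± 0.0523 (SE).

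Drug transporters and aldehyde dehydrogenases were matched about as often as all genes. Of 19 tested members 11 were matched (57.9%), 9 lower and 6 higher, against 59.0%, 33.3% and 33.7% of all genes. The transporter and dehydrogenase counts of higher, lower and matched genes were 4, 9 and 10 without parental DTP 5 and 6, and 5, 8 and 11 without chemoresistant 4 to 6. ABCC2, an exporter of drug conjugates, was at 0.0873 to 0.47 FPKM in parental DTP and 7.65 to 9.09 FPKM in chemoresistant libraries, and ABCC3 was at 0.683 to 1.32 FPKM and 3.84 to 5.11 FPKM. ALDH1A1, a retinal dehydrogenase often used to mark drug-tolerant tumour cells, was at 1.1 to 1.71 FPKM and 11.2 to 14.5 FPKM. The differences were -2.95 ± 0.0837 (SE), -1.496 ± 0.0854 (SE) and -2.61 ± 0.0848 (SE), all with no overlap. Genes for repair of platinum damage were higher about as often as all genes: of 31 members 21 were matched (67.7%, against 59.0%), 12 were higher (against 33.7%) and 4 lower (against 33.3%). The platinum repair counts of higher, lower and matched genes were 12, 7 and 21 without parental DTP 5 and 6, and 8, 4 and 20 without chemoresistant 4 to 6. Without parental DTP 5 alone, 7 were lower. DDB1, a damage sensor, was at 35.9 to 39.1 FPKM in parental DTP and 24.1 to 26.3 FPKM in chemoresistant libraries, and its partner DDB2 at 14.05 to 16.3 FPKM and 21.2 to 23.3 FPKM, with differences of 0.58 ± 0.0415 (SE) and -0.55 ± 0.0386 (SE).

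Most genes of squamous differentiation were lower in the persisters. Of 23 tested members 19 were lower, 3 higher and 3 matched, against 33.3%, 33.7% and 59.0% of all genes. The median was -1.39. The squamous counts of higher, lower and matched genes were 3, 18 and 3 without parental DTP 5 and 6, and 3, 18 and 3 without chemoresistant 4 to 6. All 14 tested S100 genes were lower, with a median of -1.51, and S100A13 was both lower and matched. All 14 were also lower without parental DTP 5 and 6 and without chemoresistant 4 to 6. S100A9 and S100A8, whose proteins pair to form calprotectin, lay between 3.9 and 35.9 FPKM (median 4.62) and between 0.307 and 2.39 FPKM (median 0.479) in parental DTP and between 1080.1 and 1159 FPKM (median 1110.0) and between 70.4 and 80.1 FPKM (median 74.98) in chemoresistant libraries. Their differences were -6.77 ± 0.39 (SE) and -5.34 ± 0.191 (SE). SPRR1A, SPRR2A and SPRR2D are precursors of the cornified envelope. In parental DTP they were at 7.77 to 14.01 FPKM, 1.35 to 2.31 FPKM and 1.27 to 3.5 FPKM. In chemoresistant libraries they were at 97.1 to 109 FPKM, 14.9 to 18.6 FPKM and 24.7 to 32.1 FPKM. SPRR2A and SPRR2D are near copies whose reads can be split. SPRR2A and SPRR1B, a further member, were lower in the persisters than in all 18 other libraries, with SPRR1B at 12.6 to 19.99 FPKM against 25.8 to 33.7 FPKM in the parental line.

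Most protease and protease inhibitor genes of the same tissue were lower too. The 3 tested kallikreins KLK10, KLK11 and KLK8, serine proteases of skin and mucosa, were at 0.665 to 1.77 FPKM, 0.118 to 0.43 FPKM and 0 to 0.0951 FPKM in parental DTP and at 20.9 to 26.4 FPKM, 4.77 to 6.37 FPKM and 2.2 to 2.48 FPKM in chemoresistant libraries. Of 10 clade B serpins and other protease inhibitors 8 were lower and 3 matched, against 33.3% and 59.0% of all genes. The inhibitor counts of higher, lower and matched genes were 0, 8 and 3 without parental DTP 5 and 6, and 0, 7 and 3 without chemoresistant 4 to 6. All 3 kallikreins were lower in both settings. PI3, the elastase inhibitor elafin, was at 0.5 to 2.63 FPKM against 40.1 to 44.3 FPKM, a difference of -4.23 ± 0.164 (SE). SLPI, a secreted protease inhibitor, was at 8.37 to 11.6 FPKM against 79.2 to 81.9 FPKM, a difference of -2.897 ± 0.108 (SE).

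Most keratins were lower in the persisters, and KRT14 was higher. Of 12 tested members 10 were lower, 1 was higher, 1 was neither and none was matched. All genes were 33.3% lower, 33.7% higher and 59.0% matched. The keratin counts of higher, lower and matched genes were 1, 10 and 0 without parental DTP 5 and 6, and 1, 8 and 0 without chemoresistant 4 to 6. KRT14, the keratin of basal cells, lay between 141 and 180.4 FPKM (median 153) in parental DTP and between 39.8 and 47.2 FPKM (median 44.2) in chemoresistant libraries, with 234 to 288 FPKM in the parental line. KRT5, its usual partner, lay between 1077 and 1413 FPKM (median 1114) in parental DTP and between 2065 and 2423 FPKM (median 2111) in chemoresistant libraries. Their differences were 1.79 ± 0.0744 (SE) and -0.92 ± 0.0608 (SE). KRT16, a keratin of wounded epithelium, was at 1.44 to 2.78 FPKM against 16.4 to 21.5 FPKM, and KRT6A was at 701 to 939 FPKM, below all 18 other libraries. Reads of KRT6A, KRT16 and KRT14 may be shared with close copies. SOX2, a squamous lineage factor, was matched at 126 to 142 FPKM and 111 to 135 FPKM, while SFN, the epithelial 14-3-3 protein, was at 165 to 201 FPKM against 525 to 604 FPKM.

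**Figure D5:**
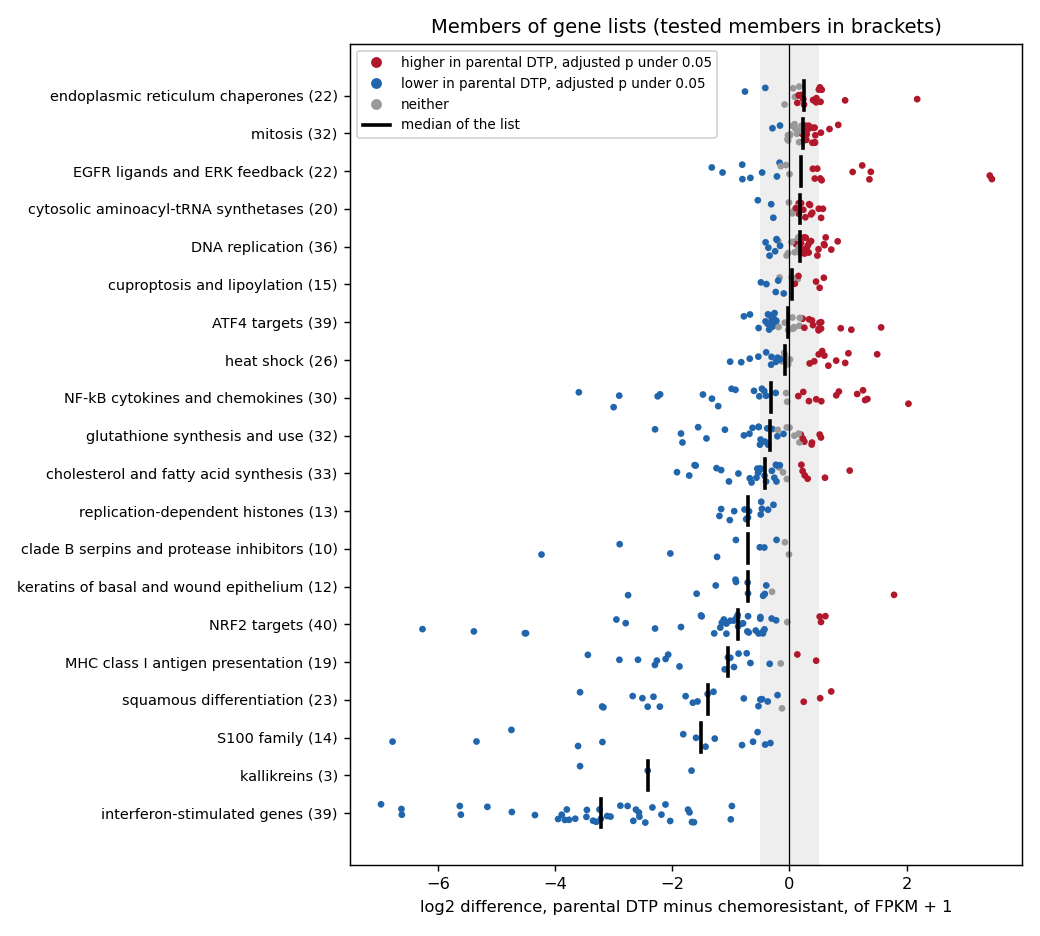
Log2 differences of single genes, parental DTP minus chemoresistant, in 20 lists ordered by their median; each point is a tested gene, coloured by its call, the bar is the median and the grey band marks differences within 0.5. Medians run from -3.22 for interferon-stimulated genes to 0.24 for endoplasmic reticulum chaperones.

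Most lipid synthesis genes were lower in the persisters. Of 33 members of the cholesterol and fatty acid list 24 were lower, 6 higher and 13 matched, against 33.3%, 33.7% and 59.0% of all genes. The median was -0.42. The lipid counts of higher, lower and matched genes were 5, 22 and 12 without parental DTP 5 and 6, and 4, 22 and 11 without chemoresistant 4 to 6. SCD, the desaturase of fatty acids, lay between 32.5 and 39.6 FPKM (median 34.9) in parental DTP and between 131 and 142 FPKM (median 135) in chemoresistant libraries, a difference of -1.92 ± 0.088 (SE), limma adjusted p = 1.5e-15. SREBF1, a transcription factor of lipid synthesis, lay between 18.3 and 22.7 FPKM (median 19.6) and between 57.3 and 70.1 FPKM (median 63.97), a difference of -1.62 ± 0.0529 (SE). HMGCS1, an early enzyme of the cholesterol pathway, was at 5.22 to 6.2 FPKM in parental DTP, below all 18 other libraries, which in the parental line held 10.95 to 13.3 FPKM. NSDHL, a later enzyme of the same pathway, was matched at 12.2 to 13.7 FPKM and 12.8 to 14.9 FPKM.

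Genes of the EGFR pathway differed in both directions, with the ligands AREG and EREG far higher in the persisters. Of 22 list members 11 were higher and 8 lower, against 33.7% and 33.3% of all genes. Of the 11 higher, 6 were so by at least 2-fold, against 2.40% of all genes. The EGFR counts of higher, lower and matched genes were 11, 9 and 5 without parental DTP 5 and 6, and 11, 8 and 5 without chemoresistant 4 to 6. AREG and EREG, ligands of EGFR, lay between 118 and 153 FPKM (median 127) and between 32.4 and 39.1 FPKM (median 35.6) in parental DTP and between 10.9 and 11.5 FPKM (median 11.2) and between 1.91 and 2.66 FPKM (median 2.33) in chemoresistant libraries. Both were above all 18 libraries of the other groups, and their differences were 3.42 ± 0.0666 (SE) and 3.46 ± 0.0705 (SE), limma adjusted p = 7.8e-23 and 1.8e-22. EGFR itself lay between 231 and 267 FPKM (median 246) in parental DTP and between 88.1 and 101 FPKM (median 93.1) in chemoresistant libraries, against 102 to 130.4 FPKM in the parental line, a difference of 1.39 ± 0.126 (SE). FOSL1, an AP-1 factor downstream of ERK, was at 12.5 to 13.7 FPKM against 4.09 to 4.94 FPKM, with 27.6 to 36.1 FPKM in the parental line. DUSP6, the phosphatase that restrains ERK, was matched at 4.35 to 6.29 FPKM and 5.03 to 5.76 FPKM.

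Several other genes with large positive differences were near their parental level in the persisters and low in the resistant line. FKBP10, a collagen-folding isomerase, had the largest positive difference, 3.77 ± 0.097 (SE), of the protein-coding genes with at least 5 FPKM and no overlap. It lay between 29.2 and 34.1 FPKM (median 31.02) in parental DTP and between 0.987 and 1.96 FPKM (median 1.34) in chemoresistant libraries, against 25.8 to 28.3 FPKM in the parental line. IRX1, a homeobox factor, was at 7.5 to 10.9 FPKM against 0.141 to 0.259 FPKM, and PLTP, a phospholipid transfer protein, at 8.27 to 9.95 FPKM against 0.198 to 0.352 FPKM. PTHLH, the hormone that raises blood calcium in squamous cancers, was at 52.5 to 62.9 FPKM against 5.09 to 6.48 FPKM, and IGF2BP1, an RNA-binding protein of fetal tissue, at 13.6 to 15.5 FPKM against 1.17 to 1.34 FPKM. For these 4 genes the parental libraries held 8.13 to 10.1 FPKM, 7.89 to 9.3 FPKM, 50.9 to 55.2 FPKM and 14.1 to 16.3 FPKM. TPM2, a tropomyosin, lay below all parental libraries (46.1 to 50.2 FPKM) at 28.8 to 33.99 FPKM in parental DTP, and within the resistant line it lay at 1.9 to 2.05 FPKM in libraries 1 to 3 and at 3.8 to 9.12 FPKM in libraries 4 to 6. TMEM156, a membrane protein, was at 16.9 to 23.7 FPKM in parental DTP, above all 18 other libraries, and at 2.96 to 5.05 FPKM in the resistant line.

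Chaperones of the endoplasmic reticulum were mostly higher in the persisters than in the resistant line. Of 22 members 16 were higher, 2 lower and 11 matched, against 33.7%, 33.3% and 59.0% of all genes. The median was 0.24. Relative to the parental line the medians were 0.06 in parental DTP and -0.26 in chemoresistant cells, with the parental libraries shared. The chaperone counts of higher, lower and matched genes were 13, 2 and 10 without parental DTP 5 and 6, and 15, 2 and 9 without chemoresistant 4 to 6. Leaving out parental DTP 1, 3 or 5 or chemoresistant 2 or 3 left 1 lower. HYOU1, a large chaperone of the secretory pathway, lay between 80.6 and 87.5 FPKM (median 84.01) in parental DTP and between 17.03 and 18.5 FPKM (median 17.7) in chemoresistant libraries, a difference of 2.18 ± 0.0442 (SE), limma adjusted p = 1.6e-22. HSPA5, the main HSP70 of this compartment, lay between 200.5 and 260.1 FPKM (median 216) and between 110.4 and 117 FPKM (median 116), a difference of 0.95 ± 0.0548 (SE). Parental libraries held 78.1 to 81.3 FPKM of HYOU1 and 73 to 81.4 FPKM of HSPA5. EDEM1, which sends misfolded proteins for degradation, was lower at 4.14 to 5.9 FPKM against 7.64 to 9.31 FPKM, and HERPUD1, also of the degradation machinery, was matched at 15.5 to 18.7 FPKM and 17.3 to 19.2 FPKM.

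Genes of the cuproptosis list, on the title's cell death pathway, were matched, higher and lower about as often as all genes. Copper transport genes were lower more often than all genes. Of 15 tested members of the cuproptosis list 10 were matched (66.7%, against 59.0% of all genes), 5 were higher and 5 lower (33.3% each, against 33.7% and 33.3%), with a median of 0.05; without parental DTP 5 and 6 the median was -0.02, with the same counts, and without chemoresistant 4 to 6 the list held 4 higher and 2 lower. Without parental DTP 1 alone, 3 were lower. DLST, a lipoylated subunit of the oxoglutarate dehydrogenase complex, was at 34.4 to 37.6 FPKM in parental DTP and 31.8 to 36.1 FPKM in chemoresistant libraries, and LIPT1, a lipoyl transferase, at 1.44 to 1.82 FPKM and 1.68 to 1.93 FPKM. LIPT2, which starts lipoylation, was higher at 1.98 to 2.81 FPKM against 1.06 to 1.64 FPKM. ATP7B, a copper exporter, was lower at 0.579 to 0.74 FPKM against 1.25 to 1.37 FPKM. Among 12 tested copper transport genes 8 were matched (66.7%), 3 higher and 7 lower, against 59.0%, 33.7% and 33.3% of all genes. The copper counts of higher, lower and matched genes were 2, 7 and 7 without parental DTP 5 and 6, and 3, 6 and 6 without chemoresistant 4 to 6. SCO2, which delivers copper to cytochrome oxidase, was at 0.0997 to 0.198 FPKM in parental DTP and 1.43 to 2.38 FPKM in chemoresistant libraries. Its difference was -1.33 ± 0.075 (SE). Of 22 iron genes 8 were matched (36.4%), 7 were higher and 8 lower, against 59.0%, 33.7% and 33.3% of all genes. The iron counts of higher, lower and matched genes were 6, 9 and 9 without parental DTP 5 and 6, and 6, 7 and 8 without chemoresistant 4 to 6. FTL, the ferritin light chain, which has processed copies in the genome, was lower at 439 to 586 FPKM against 876 to 992 FPKM, and ACSL4, an acyl-CoA synthetase that favours lipid peroxidation, was higher at 9.32 to 12.3 FPKM against 2.68 to 4.09 FPKM.

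Of 24 tested p53 targets 15 were matched (62.5%, against 59.0% of all genes), 13 lower (against 33.3%) and 3 higher (against 33.7%), and 5 were higher without parental DTP 2. The p53 counts of higher, lower and matched genes were 3, 13 and 15 without parental DTP 5 and 6, and 3, 13 and 12 without chemoresistant 4 to 6. CDKN1A, the cell cycle inhibitor p21, was at 1.98 to 2.6 FPKM in parental DTP and 4.02 to 5.7 FPKM in chemoresistant libraries. PLK2, a stress kinase, was at 14.7 to 18.3 FPKM against 4.65 to 5.39 FPKM. Its difference, 1.48 ± 0.0483 (SE), was the largest positive difference of the p53 list. Of 14 members of the BCL2 family 7 were lower, 2 higher and 8 matched (57.1%), against 33.3%, 33.7% and 59.0% of all genes. The BCL2 counts of higher, lower and matched genes were 2, 9 and 8 without parental DTP 5 and 6, and 2, 7 and 8 without chemoresistant 4 to 6. The pro-death members HRK, BIK and BBC3 were at 0.429 to 0.522 FPKM, 1.58 to 2.46 FPKM and 1.34 to 1.55 FPKM in parental DTP and at 1.86 to 2.63 FPKM, 4.07 to 6.19 FPKM and 2.47 to 3.13 FPKM in chemoresistant libraries. MCL1, which protects from death, was at 33.1 to 37.9 FPKM against 43.6 to 55.1 FPKM.

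Mesenchymal and matrix genes differed without a common direction: 15 of 27 tested were lower, 9 higher and 3 matched. Among all genes 33.3% were lower, 33.7% higher and 59.0% matched. VIM, the intermediate filament of mesenchymal cells, was at 0.411 to 1.06 FPKM in parental DTP and 4.75 to 7.89 FPKM in chemoresistant libraries. AXL, a receptor kinase often raised in drug tolerance, was at 2.76 to 3.55 FPKM against 0.483 to 0.793 FPKM. Parental libraries held more AXL than both groups, at 5.49 to 7.16 FPKM. The fibroblast-list collagens move with chemoresistant libraries 4 to 6 as given above, and their part in the differences of this list was not tested; without those libraries 12 members were lower, 9 higher and 3 matched, and without parental DTP 5 and 6 these counts were 13, 9 and 4. All 13 tested replication-dependent histone genes, whose messages lack a poly(A) tail in dividing cells, were lower, with a median of -0.71, and 2 were matched; all 13 were lower in both settings without the doubted libraries. H2BC12 was at 37.7 to 47.2 FPKM against 83.3 to 106 FPKM, and H1-2 at 4.67 to 7.4 FPKM against 11.8 to 17.7 FPKM.

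The large housekeeping complexes had small median differences, with more members lower than higher in each list. Against 59.0% of all genes, 25 of 30 tested proteasome subunits were matched (83.3%), of 61 ribosomal proteins 35 (57.4%), of 40 nuclear-encoded respiratory chain genes 21 (52.5%) and of 27 lysosome and autophagy genes 16 (59.3%). Without parental DTP 5 and 6 the matched genes of these lists numbered 22, 35, 18 and 17, and without chemoresistant 4 to 6 they numbered 23, 28, 17 and 15. In the same order, 10, 26, 23 and 17 members were lower and 6, 12, 3 and 6 higher, against 33.3% and 33.7% of all genes. Lower members numbered 12, 29, 28 and 18 without parental DTP 5 and 6, and 8, 20, 22 and 15 without chemoresistant 4 to 6. The medians of these lists were -0.03, -0.13, -0.27 and -0.22. WIPI1, an early autophagy protein, was at 16.3 to 20.2 FPKM in parental DTP and 4.92 to 5.72 FPKM in chemoresistant libraries, and SQSTM1, an autophagy receptor that NRF2 also raises, at 37.8 to 43.3 FPKM and 69.9 to 79.9 FPKM, with differences of 1.63 ± 0.047 (SE) and -0.88 ± 0.0473 (SE). Of 31 hypoxia and glycolysis genes 17 were matched (54.8%), 16 lower and 5 higher, against 59.0%, 33.3% and 33.7% of all genes. The hypoxia counts of higher, lower and matched genes were 5, 17 and 15 without parental DTP 5 and 6, and 5, 16 and 12 without chemoresistant 4 to 6.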

How the data were processed

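RNA from KYSE450 cells was extracted with TRIzol and sequenced by standard Illumina protocols, per the labels' protocols; the build was GRCh38, per the submitters' processing notes, while aligner, counter, annotation and strand setting were not given in the sources used here, so reads of overlapping and antisense genes may not be separated. The authors deposited 1 table of FPKM values for 61274 rows and 24 libraries. From it, 23 rows without values were dropped. Whole reads, within 0.02 reads or, for the most abundant genes, a wider margin in proportion, were recovered for 99.998% of 41101 expressed genes, giving totals of 14947379 to 37989457 reads, at which 3 reads equal 0.079 to 0.201 CPM; such limits cover counting error only.

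log2(FPKM + 1) values were fitted with limma 3.58.1 (R 4.3.3) as 4 group means over all 24 libraries with a mean-variance trend, two-sided, with Benjamini-Hochberg adjustment and a threshold of 0.05. Genes needed a mean of 1 FPKM in either group. The fit was tested on simulated reads in which few genes changed and no library stood apart from its group. These data differ from that setting, so the simulation does not cover them in full. Members and gene lists were chosen with earlier results of these data known, so they are no independent support.

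Named genes were drawn from those of the title and from sets taken by rule, not all of whose members are named. The first set was the 10 largest differences each way among coding genes called different, with at least 5 FPKM and no overlap. Others were up to 5 matched genes each way farthest from the parental line, and up to 5 each way beyond all 18 other libraries. The rest were, per list, up to 4 members with the largest differences and up to 3 matched members with the narrowest intervals. The collagen gene was named from the fibroblast markers after its values were seen. Y-linked genes are not reported. Promoters are RefSeq's, in GRCh38.p14. Alternatives were pseudocounts, filters, scalings, the libraries fitted, limma-voom, a replicate block and leaving libraries out; leaving out chemoresistant 4 to 6 was chosen after seeing the data.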

Additional observations from a re-analysis of the deposited data

Results flagged for a closer look

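For each of the 124 genes named, the highest and lowest of the 6 libraries of each group were set against the rest by Dixon's gap, and 16 of 248 groups (6.45%) held a library whose gap exceeded the 95% critical value. Chance gives about 5%. Of the 16, 8 were parental DTP library 6 and 4 were parental DTP library 5.

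In parental DTP library 6, KEAP1 stood above the others at 35.6 FPKM (others 25.02 to 28.4), SFN at 201.1 FPKM (165 to 176), KRT5 at 1413 FPKM (1077 to 1169) and KRT18 at 144.2 FPKM (113 to 124). The same library stood below the others for NFE2L2 at 27.8 FPKM (others 33.96 to 37.2), PTHLH at 52.5 FPKM (59.5 to 62.95), ALDH1L2 at 9.01 FPKM (10.8 to 10.96) and HSP90AA1 at 175.7 FPKM (211 to 222). Parental DTP library 5 stood above the others for SLC31A1 at 18.7 FPKM (14.5 to 15.8), MCL1 at 37.9 FPKM (33.1 to 34.5), ALDH1A1 at 1.71 FPKM (1.10 to 1.32) and DNAJA1 at 48.7 FPKM (34.9 to 39.7).

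Among chemoresistant libraries, library 3 stood below the others for HSPA5 at 110.4 FPKM (others 114 to 117) and DUSP6 at 5.03 FPKM (5.56 to 5.76). Library 1 stood below the others for SPRR1B at 67.6 FPKM (88.5 to 95.8), and library 2 above them for DDB1 at 26.3 FPKM (24.1 to 24.9).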

How the results depend on the processing

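Over the alternatives, the 124 named genes gave 2834 values: 2777 kept their direction and their side of the threshold, 34 lost the threshold, 11 gained it and 12 changed sign, all 12 of genes not past the threshold; 109 genes kept both throughout. Requiring 5 FPKM, which tests 7243 genes, gave 2729 genes higher, 2374 lower, 372 at least 2-fold lower and 4305 matched. Testing every gene above 0 gave 7464 lower and 31761 matched. Adding 0.1 FPKM gave 628 genes at least 2-fold higher, 1087 at least 2-fold lower and 6203 matched, and limma-voom gave 681, 1158 and 6080. Leaving out single libraries gave 4241 to 4659 genes higher, 4280 to 4548 lower, 306 to 352 and 606 to 648 at least 2-fold higher and lower, and 7646 to 8028 matched. The distance between parental and parental DTP libraries from the chemoresistant mean was 0.246 with 0.1 FPKM added, 0.0881 without a filter and 0.0331 as 1 minus Spearman's rho, which is another scale.

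Counts of lists moved by over 1.5 times in few settings. Requiring 5 FPKM, which tests fewer members, gave 8 NF-kB, 9 mesenchymal, 5 EGFR, 8 p53, 2 cuproptosis and 7 histone genes lower, and 1 squamous, 2 cuproptosis and 2 drug transport genes higher. Without a filter, 13 serpins, 7 kallikreins, 1 endoplasmic reticulum chaperone and 3 cuproptosis genes were lower, and 5 squamous genes and 1 histone gene higher. Relative log expression scaling gave 1 MHC class I and 6 p53 genes higher and 1 chaperone lower; upper quartile scaling gave 1 MHC class I gene higher. Without parental DTP 5 and 6, 1 mitosis and 7 platinum repair genes were lower; without chemoresistant 4 to 6, 2 cuproptosis genes were lower and 1 MHC class I gene higher. Single libraries left out gave 1 to 2 MHC class I and 2 to 5 p53 genes higher, and 1 to 2 chaperones, 3 to 6 cuproptosis and 4 to 7 platinum repair genes lower. The cause was not tested where more members were called. The sign changed for COL1A2 (0.631 by limma-voom, from -0.266), DDIT3 (0.02 without chemoresistant 4 to 6, 0.001 with relative log expression scaling, -0.096 to 0.032 over single libraries, from -0.02), BUB3 (0.015 without parental DTP 5 and 6, from -0.023) and DUSP6 (-0.029 to 0.06 over single libraries, from 0.003).

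With the replicate number as a block, 4598 genes were higher, 4515 lower, 324 and 617 by at least 2-fold, and 8017 matched. LIPT1 lost the threshold (adjusted p = 0.102) and UHRF1 passed it (0.0316); no other named call changed. Same-numbered libraries of the 2 groups correlated at -0.087 to 0.201 in their deviations, none correlated best with its own number, and the numbers were not taken to pair them. At this depth 3 reads set the floor, and genes under 1 FPKM in both groups were not tested.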
